A study of Homo sapiens with 36 samples.

Results

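The 10 genes described here carry iron into cells, store it, release it, or sense how much of it is free. They were chosen by symbol from the 60591 genes of the mRNA count table, and all 10 passed the filter on low counts in both cell lines. TFRC, SLC11A2 and CYBRD1 serve uptake, FTH1, FTL and NCOA4 serve storage, SLC40A1 and HEPH serve export, and ACO1 and IREB2 encode the iron sensors. The question was whether these genes moved as in iron shortage or as in activity of hypoxia-inducible factor (HIF) under each of 2 agents that stabilise HIF.

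Messenger RNA was sequenced in 18 libraries of Caco-2 and HT-29, which are human colorectal cancer cell lines, with 3 biological replicates in each of 6 groups. Cells of each line were given cobalt chloride (CoCl2) at 300 µM for 24 h, a derivative of oxyquinoline (OD, known by a supplier's code) at 5 µM for 24 h, or medium with 0.5 µl of dimethyl sulfoxide (DMSO) per ml as a control, and the labels give the same amount of DMSO for OD. Caco-2 had been kept under differentiating conditions for 21 days and HT-29 had not, so cell line and culture state cannot be told apart. The labels name water as the solvent of the CoCl2 stock, while the methods written for Caco-2 give DMSO in the CoCl2 medium too and at another concentration, so the solvent is not matched with certainty between CoCl2 and control. The agents act on HIF by inhibiting prolyl hydroxylases, enzymes that need iron and tag HIF for degradation. No measurement of cellular iron was among the files analysed here.

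Iron is controlled in cells largely at the level of RNA. When free iron falls, the iron regulatory proteins encoded by ACO1 and IREB2 bind hairpins called iron-responsive elements (IREs). An IRE in the 3′ untranslated region (UTR), as in TFRC, protects the mRNA from decay, and an IRE in the 5′ UTR, as in the ferritins, blocks translation without needing any change in mRNA level. HIF acts on transcription, and TFRC, SLC11A2, CYBRD1, SLC40A1 and the ceruloplasmin gene CP are known targets of it, while the ferritins, SLC40A1 and the heme oxygenase gene HMOX1 are known targets of NRF2, the factor that answers oxidative and electrophile stress. TFRC and SLC11A2 are thus known to rise by either route, and mRNA levels alone cannot tell these apart.

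IREs were searched in the annotated UTRs of 19676 protein-coding genes as an unpaired C, then 5 bases, the loop CAGTGN and 5 bases that pair with the first 5, G-U pairs included. The sites of the members are shown because they separate the genes whose mRNA level can answer the sensors from those whose translation can. Capitals mark the unpaired C and the loop, and all sites are given 5′ to 3′ on the strand of the gene, on GRCh38.
TFRC, 3′ UTR, chr3:196050979-196051007, minus strand: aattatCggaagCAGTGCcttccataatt
TFRC, 3′ UTR, chr3:196050575-196050603, minus strand: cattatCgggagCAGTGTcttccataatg
TFRC, 3′ UTR, chr3:196050510-196050538, minus strand: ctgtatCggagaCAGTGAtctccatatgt
TFRC, 3′ UTR, chr3:196050463-196050491, minus strand: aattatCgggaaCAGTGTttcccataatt
SLC11A2, 3′ UTR, chr12:50988269-50988297, minus strand: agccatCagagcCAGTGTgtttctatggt
FTH1, 5′ UTR, chr11:61967574-61967602, minus strand: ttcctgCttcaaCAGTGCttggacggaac
FTL, 5′ UTR, chr19:48965335-48965363, plus strand: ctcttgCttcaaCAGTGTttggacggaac
SLC40A1, 5′ UTR, chr2:189580661-189580689, minus strand: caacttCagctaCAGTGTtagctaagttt

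TFRC held 4 sites, all in the 3′ UTR and all in 10 of its 11 annotated transcripts. FTH1, FTL and SLC40A1 held 1 site each in the 5′ UTR, in 7 of 8, 1 of 1 and 1 of 5 transcripts. Of all genes searched, 0.198% had such a site in a 5′ UTR and 0.727% in a 3′ UTR. The SLC11A2 site has 1 unpaired base on the 3′ side of its upper stem, with all 5 pairs kept. It was found with a looser form that allows such a base, added after the stricter search. Sites of this form, counted apart from the strict ones, were in a 5′ UTR of 0.371% of genes and a 3′ UTR of 1.19%. The SLC11A2 site lay in 4 of 17 annotated transcripts of the gene. Since the deposited counts sum all transcripts of a gene, forms with and without it could not be followed apart. The looser form also matched IREB2 in the 3′ UTR, in 1 of 4 transcripts. CYBRD1, HEPH, ACO1 and NCOA4 gave no match, which says only that these letters are not in the UTRs searched.

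The 18 libraries held between 12925719 and 22332639 counts. Levels below are CPM, counts relative to the total of the library, on library sizes scaled within each line by TMM, the trimmed mean of M values, and they are given as mean ± SD over 3 replicates. A gene was called when its false discovery rate (FDR, edgeR quasi-likelihood F test, two-sided, Benjamini-Hochberg over all genes tested) was under 0.05 and its log2 fold change was over 1 in size, the thresholds of the study. All 8 markers of colorectal epithelium stood at 1 CPM or more in every group. Of 8 enterocyte markers, 7 or 8 did in Caco-2 and 4 in HT-29, where APOA4, ALPI, APOA1 and FABP2 were below 1 CPM, and the erythroid marker HBB was at or near 0 in all groups. In such bulk libraries fewer cells of a kind and less RNA per cell cannot be told apart. TMM factors were lowest with CoCl2, so that scaling by library size alone lowers the median log2 change of all genes against control by 0.32 in Caco-2 and 0.63 in HT-29 with CoCl2, and by 0.15 and 0.14 with OD.

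Against control, CoCl2 raised FTH1, FTL and SLC11A2 past the call in both lines, while OD raised TFRC and SLC11A2 in Caco-2 and FTH1 and FTL in HT-29. No member was called lower by either agent. For CoCl2 in Caco-2 the calls were 3 of 10 members, all higher, against 23.4% of all genes tested, and 9.13% of genes were called higher. For OD in Caco-2 they were 2 of 10, both higher, against 11.7%, and 4.43% called higher. For CoCl2 in HT-29 they were 3 of 10, all higher, against 41.3%, and 17.4% called higher. For OD in HT-29 they were 2 of 10, both higher, against 17.1%, and 9.5% called higher. At the FDR threshold with no limit on the fold change, 7 members were higher and 1 lower with CoCl2 in Caco-2, 5 higher and 2 lower with OD, and in HT-29 these counts were 8 and 0 and 7 and 2, where 64.7%, 50.4%, 82.8% and 68.8% of all genes passed. By direction, 31.6% of all genes passed as higher and 33.1% as lower with CoCl2 in Caco-2, and 25.7% and 24.7% with OD. In HT-29 these shares were 40.7% and 42.2% with CoCl2, and 34.7% and 34% with OD. With 10 genes the total of calls is near the background, so it is not a result about the members. The members leaned toward higher values more than all genes did, which was not tested. The values of each gene follow. In Caco-2 the 10 members had a median log2 fold change of 0.39 under CoCl2 and 0.25 under OD. In HT-29 the medians were 0.78 under CoCl2 and 0.62 under OD, while those of all genes lay between −0.03 and 0.01.

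**Figure D1:**
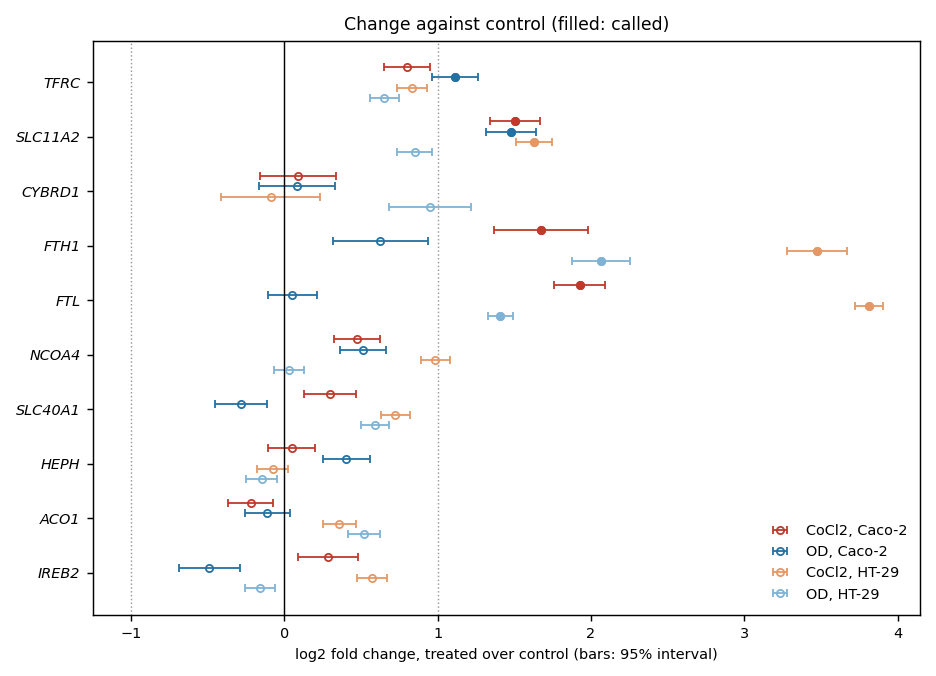
Log2 fold change of the 10 genes against control (x axis, treated over control) with 95% intervals, for 2 agents in 2 cell lines, filled where the gene was called and dotted at the limits of −1 and 1. FTH1 and FTL spread most between the conditions, FTL from 0.05 with OD in Caco-2 to 3.81 with CoCl2 in HT-29, while TFRC stays between 0.65 and 1.12.

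TFRC encodes transferrin receptor 1, which takes up iron bound to transferrin. In Caco-2 its levels were 637.1, 585.6 and 596.8 CPM in the controls, 996.6, 1065 and 1108 with CoCl2, and 1338, 1338 and 1265 with OD. In HT-29 they were 466, 446 and 486 CPM in the controls, 793, 852 and 848 with CoCl2, and 773, 716 and 712 with OD. The 3 groups did not overlap in either line, and all treated libraries lay above all controls.

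In Caco-2, OD raised TFRC 2.17-fold, a log2 change of 1.12 ± 0.07 (SE, edgeR FDR = 6.49e-12), and CoCl2 raised it 1.74-fold (log2 0.80 ± 0.07, edgeR FDR = 7.89e-10). The call for OD was lost on library size alone, where the value was 0.96. Compared directly, TFRC was lower with CoCl2 than with OD by a log2 value of −0.31 ± 0.07 (edgeR FDR = 7.57e-04). In HT-29 the changes were 1.78-fold with CoCl2 (log2 0.83 ± 0.05) and 1.57-fold with OD (log2 0.65 ± 0.05), and the order of the agents was turned, with CoCl2 above OD by 0.18 ± 0.05 (edgeR FDR = 0.00119). Library size alone left TFRC with CoCl2 at 0.48 in the Caco-2 libraries and at 0.20 in those of HT-29, where it turned the order of the agents to −0.32. The response of TFRC to OD was smaller in HT-29 than in Caco-2 by −0.48 ± 0.09 (edgeR FDR = 2.66e-05).

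The promoter of TFRC is printed because HIF binds DNA at ACGTG or GCGTG, and ACGTG, in capitals, begins 88 bases before the RefSeq start site. The printed stretch stops short of that start site. It covers 187 bases of the RefSeq promoter upstream of all exons annotated in GENCODE, chr3:196082154-196082340 on the minus strand of GRCh38.p14. In windows of the same kind around start sites, 21.4% of 35116 RefSeq promoters hold ACGTG on either strand and 36.5% hold GCGTG, so that a match is common.
TFRC promoter: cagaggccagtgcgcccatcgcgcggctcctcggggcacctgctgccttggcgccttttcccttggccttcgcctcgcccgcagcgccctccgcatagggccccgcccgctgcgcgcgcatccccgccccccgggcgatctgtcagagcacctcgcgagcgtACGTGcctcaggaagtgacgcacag

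SLC11A2 encodes the divalent metal transporter DMT1, which carries ferrous iron across the apical membrane of enterocytes and out of endosomes. Its levels in Caco-2 were 202, 224 and 193 CPM in the controls, 552, 632 and 577 with CoCl2, and 580.4, 607 and 541 with OD. In HT-29 they were 107, 119 and 106 CPM in the controls, 357, 322 and 350.5 with CoCl2, and 211, 185 and 203 with OD. All treated libraries lay above the controls, the agents overlapped in Caco-2, and in HT-29 CoCl2 lay above OD without overlap.

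SLC11A2 rose 2.84-fold in Caco-2 under CoCl2 and 2.79-fold under OD (log2 1.51 ± 0.08 and 1.48 ± 0.08, edgeR FDR = 3.68e-14 and 1.47e-13). The difference between the agents there was 0.03 on the log2 scale with a 95% interval from −0.13 to 0.19, so a difference of over 0.19 lay outside the interval. In HT-29 it rose 3.10-fold with CoCl2 (log2 1.63 ± 0.06, edgeR FDR = 1.20e-19, but 0.998 and no longer called on library size alone) and 1.80-fold with OD (log2 0.85 ± 0.06, edgeR FDR = 5.07e-13). CoCl2 exceeded OD in HT-29 by 0.78 ± 0.06, and the response to OD was smaller in HT-29 than in Caco-2 by −0.65 ± 0.10 (edgeR FDR = 2.16e-06). For CoCl2 the difference between the lines was 0.02 with an interval from −0.19 to 0.22.

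SLC11A2 has 4 RefSeq promoters, and the one with the most HIF letters is printed, with GCGTG and its reverse complement CACGC in capitals, 234 bases upstream of the exon at chr12:51026401-51026634 on the minus strand of GRCh38.p14. None of the 4 windows was tied to the counts, which sum all transcripts. The same letters were found beside other members too, but FTH1 had no promoter in the set and was not searched. The FTL promoter held 1 ACGTG and 2 GCGTG, more than that of TFRC. CYBRD1, ACO1 and IREB2 each held 1 GCGTG in 1 of their windows. SLC40A1, HEPH and NCOA4 gave no match to either motif. Letters bound by NRF2, TGACNNNGC with N for any base, were searched too, and 13.3% of promoters hold them. Among the members they matched only NCOA4, in 1 window, and neither FTL nor SLC40A1. A match describes the letters and nothing more.
SLC11A2 promoter: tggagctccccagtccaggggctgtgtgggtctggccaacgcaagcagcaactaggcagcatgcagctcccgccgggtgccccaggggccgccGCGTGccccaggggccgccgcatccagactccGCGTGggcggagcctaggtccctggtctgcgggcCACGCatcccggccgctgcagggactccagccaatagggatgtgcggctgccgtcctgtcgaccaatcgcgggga

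CYBRD1 encodes duodenal cytochrome b, a ferric reductase that prepares dietary iron for DMT1. In Caco-2 the controls held 24.1 ± 2.46 CPM, CoCl2 libraries 25.6 ± 4.07 and OD libraries 25.6 ± 2.83, the 3 groups overlapped, and neither agent passed the test (95% intervals of the log2 change from −0.16 to 0.34 and from −0.16 to 0.33). In HT-29 it was low, with 39 to 146 counts a library, and OD raised it from 4.01 ± 0.39 to 7.67 ± 0.55 CPM (log2 0.95 ± 0.13, edgeR FDR = 3.13e-07), just under the fold limit. CoCl2 left it at 3.701 ± 0.43 CPM, which did not pass the test (interval from −0.41 to 0.23, but −0.72 with edgeR FDR = 1.49e-04 on library size alone), and CYBRD1 was lower with CoCl2 than with OD by −1.04 ± 0.14 (edgeR FDR = 2.54e-07). This was the only member called lower with CoCl2 than with OD, and the call was lost without replicate 3 of CoCl2 (−0.95) or replicate 2 of OD (−0.99), and with limma on the deposited log2 values (−0.57).

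**Figure D2:**
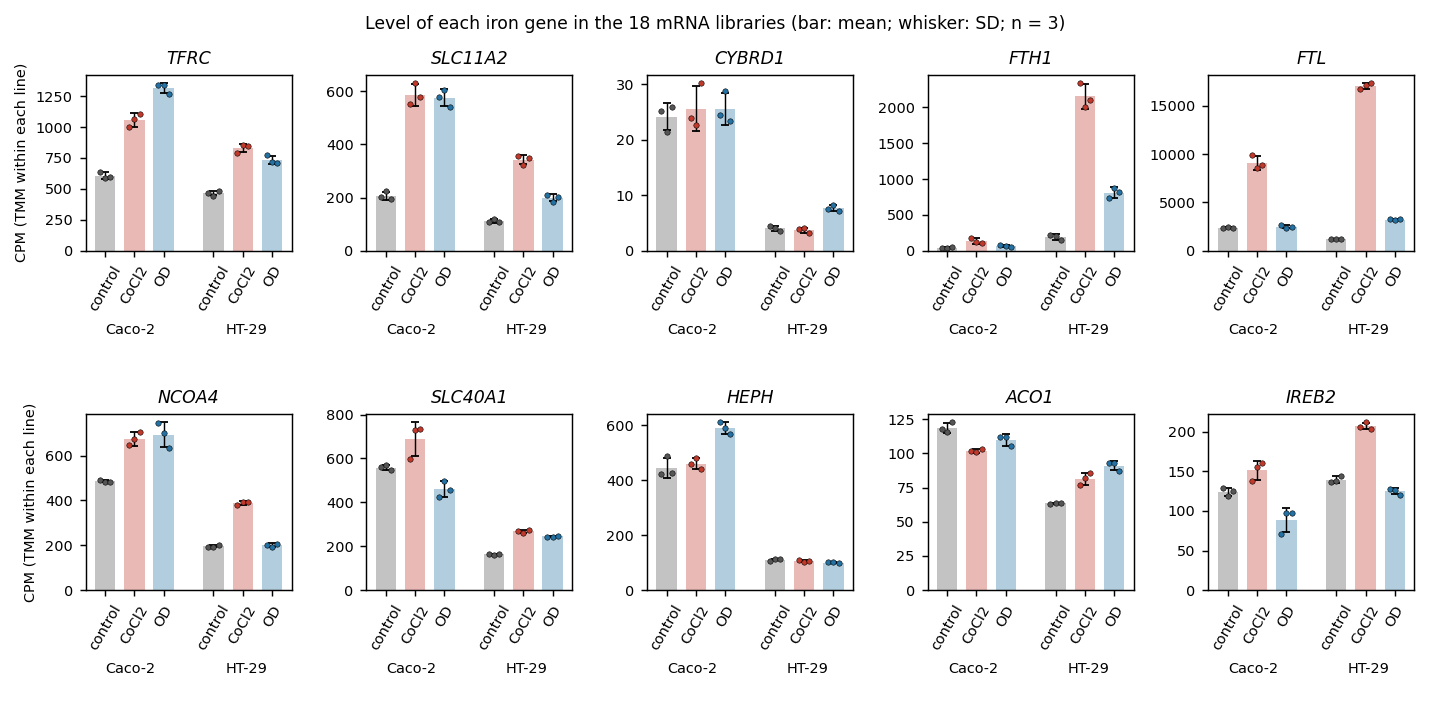
Level of each gene in CPM (y axis, linear from 0, a scale of its own in each panel) in the 18 libraries, with points for libraries, bars for group means and whiskers for the SD over 3 replicates. FTH1 and FTL tower in HT-29 with CoCl2 at 2151 and 17050 CPM, while SLC11A2 is about as high with CoCl2 as with OD in Caco-2, at 587 and 576 CPM.

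FTL and FTH1 encode the light and heavy chains of ferritin, the shell in which cells store iron, and the heavy chain oxidises the iron that enters. FTL stood in Caco-2 at 2353, 2459 and 2380 CPM in controls, 9921, 8550 and 8867 with CoCl2, and 2658, 2359 and 2448 with OD. In HT-29 it stood at 1226, 1246 and 1168 CPM in controls, 16740.0, 17090.0 and 17330.0 with CoCl2, and 3232, 3179 and 3248 with OD. CoCl2 libraries lay far above all others in both lines, and OD libraries overlapped the controls in Caco-2 and lay above them in HT-29.

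FTL rose 3.80-fold with CoCl2 in Caco-2 (log2 1.93 ± 0.08, edgeR FDR = 3.36e-16) and 14.1-fold in HT-29 (log2 3.81 ± 0.04, edgeR FDR = 8.91e-30). With OD it rose 2.65-fold in HT-29 (log2 1.41 ± 0.04, edgeR FDR = 1.00e-20) and did not pass the test in Caco-2, where the log2 change was 0.05 with an interval from −0.11 to 0.21 (edgeR FDR = 0.585). The mean share of all counts taken by FTL went from 0.145% in HT-29 controls to 1.31% with CoCl2, so FTL itself lowers the share left for other genes there only slightly.

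FTH1 stood in Caco-2 at 36.7, 40.5 and 52.0 CPM in controls, 180.0, 126 and 107 with CoCl2, and 80.04, 61.5 and 57.4 with OD. In HT-29 it stood at 224, 209 and 150.3 CPM in controls, 2340.0, 2009 and 2104 with CoCl2, and 737.5, 879 and 819 with OD. The 3 groups did not overlap in either line, with CoCl2 highest, OD next and control lowest.

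FTH1 rose 3.19-fold with CoCl2 in Caco-2 (log2 1.67 ± 0.15, edgeR FDR = 6.45e-10) and 11.1-fold in HT-29 (log2 3.47 ± 0.10, edgeR FDR = 5.58e-22). OD raised it 4.19-fold in HT-29 (log2 2.07 ± 0.09, edgeR FDR = 8.26e-17) and 1.54-fold in Caco-2 (log2 0.63 ± 0.15, edgeR FDR = 0.00125), which is under the fold limit. FTH1 has 24 processed pseudogenes in the count table whose summed counts came to 10.1% to 24.8% of those of FTH1 in a library, and the handling of reads that match several places is not given in the sources used here, so its level is uncertain. The gene BEST1 overlaps it on the opposite strand. With pseudogene counts added, an alternative chosen after seeing the data, the log2 changes of FTH1 under CoCl2 were 1.61 and 3.48 in the respective lines, and under OD 0.54 and 2.06. For FTL, 16 pseudogenes held 0.237% to 0.374% of its counts.

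NCOA4 encodes the receptor that delivers ferritin to lysosomes, where its iron is freed. In Caco-2 the controls held 486 ± 5.12 CPM, and it rose to 675 ± 29.9 under CoCl2 and to 694 ± 55.5 under OD, by 0.47 ± 0.07 and 0.51 ± 0.07 on the log2 scale (edgeR FDR = 4.75e-06 and 3.00e-06), and the agents overlapped. In HT-29 it rose from 196 ± 5.53 to 389 ± 8.40 CPM with CoCl2, by 0.99 ± 0.05 (edgeR FDR = 7.99e-17), just under the fold limit. On library size alone the CoCl2 values of NCOA4 were 0.15 in Caco-2 and 0.35 in HT-29. With OD in HT-29 it stood at 201 ± 8.64 CPM, overlapped the controls and did not pass the test, with an interval of the log2 change from −0.06 to 0.13 (−0.11 with edgeR FDR = 0.0373 on library size alone). The response to OD differed between the lines by −0.50 ± 0.09 (edgeR FDR = 1.54e-05).

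SLC40A1 encodes ferroportin, the known exporter of iron from cells. In Caco-2 its libraries held 547 to 568 CPM in controls, 597 to 733 with CoCl2 and 426 to 496 with OD, so that the groups did not overlap and the agents lay on opposite sides of control. The log2 change with OD was −0.28 ± 0.08 (edgeR FDR = 0.00604), and with CoCl2 it was 0.30 ± 0.08 (edgeR FDR = 0.00252), which turned to −0.02 on library size alone. In HT-29 both agents raised it over the 162 ± 3.67 CPM of the controls, CoCl2 to 268 ± 7.12 (log2 0.73 ± 0.04, but 0.092 with edgeR FDR = 0.0577 on library size alone) and OD to 244 ± 2.15 (log2 0.59 ± 0.04). The response of SLC40A1 to OD differed between the lines by 0.85 ± 0.10 (edgeR FDR = 4.90e-09).

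HEPH encodes hephaestin, a copper oxidase that readies exported iron for transferrin. OD raised it in Caco-2 from 446 ± 36.2 to 590.5 ± 21.3 CPM (log2 0.41 ± 0.07, edgeR FDR = 7.11e-05) and lowered it slightly in HT-29, from 111 ± 3.06 to 100.3 ± 3.11 CPM (log2 −0.15 ± 0.05, edgeR FDR = 0.0105). CoCl2 libraries overlapped the controls in both lines, with 461 ± 20.5 and 105 ± 3.702 CPM, and did not pass the test (intervals from −0.10 to 0.20 and from −0.18 to 0.03). On library size alone HEPH passed as lower with CoCl2, by −0.27 in Caco-2 and −0.71 in HT-29 (edgeR FDR = 0.00183 and 3.59e-13).

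ACO1 and IREB2 encode iron regulatory proteins 1 and 2. Their activity is set mainly at the protein level, ACO1 by an iron-sulfur cluster and IREB2 by breakdown through FBXL5, so their mRNA is no measure of it. IREB2 in Caco-2 held 118.5 to 128.5 CPM in controls, 138 to 160.4 with CoCl2 and 70.8 to 97.7 with OD, without overlap, with changes of 0.29 ± 0.10 (−0.03 on library size alone) and −0.49 ± 0.10. In HT-29 the changes were 0.57 ± 0.05 with CoCl2, which turned to −0.06 on library size alone, and −0.16 ± 0.05 with OD. OD thus lowered IREB2 mRNA in both lines (edgeR FDR = 1.95e-04 and 0.00408), and CoCl2 exceeded OD by 0.77 ± 0.10 in Caco-2 and 0.73 ± 0.05 in HT-29.

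ACO1 in HT-29 rose from 63.5 ± 0.39 CPM to 91.0 ± 3.49 with OD (log2 0.52 ± 0.05, edgeR FDR = 9.14e-10), and with CoCl2 to 81.4 ± 4.37 (log2 0.36 ± 0.05), which turned to −0.28 on library size alone. In Caco-2 it fell by 0.22 ± 0.07 on the log2 scale with CoCl2 (edgeR FDR = 0.00969). With OD in Caco-2 all 3 libraries, at 105 to 112 CPM, lay below the controls at 116 to 123 CPM, but the change of −0.11 did not pass the test (edgeR FDR = 0.197), while on library size alone it was −0.27 and passed (edgeR FDR = 0.0025).

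Setting the agents against each other within a line asks which members differ between cobalt and OD when both stabilise HIF. In Caco-2, 2 of 10 members were called, FTL and FTH1, both higher with CoCl2 by 1.87 ± 0.08 and 1.05 ± 0.14 (edgeR FDR = 5.24e-15 and 1.93e-06), against 11.7% of all genes. The FTH1 call there was lost on library size alone (0.89) and without replicate 1 of CoCl2 (0.81), replicate 2 of OD (0.99) or replicate 3 of OD (0.95). In HT-29, 3 of 10 were called against 29.9% of all genes, FTL and FTH1 higher with CoCl2 by 2.41 ± 0.04 and 1.41 ± 0.09 (edgeR FDR = 9.86e-26 and 5.78e-14; FTH1 0.91 and not called on library size alone) and CYBRD1 lower. In Caco-2, OD thus raised TFRC more than CoCl2 did and SLC11A2 by a like amount, while the ferritins were higher with CoCl2 in both lines.

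**Figure D3:**
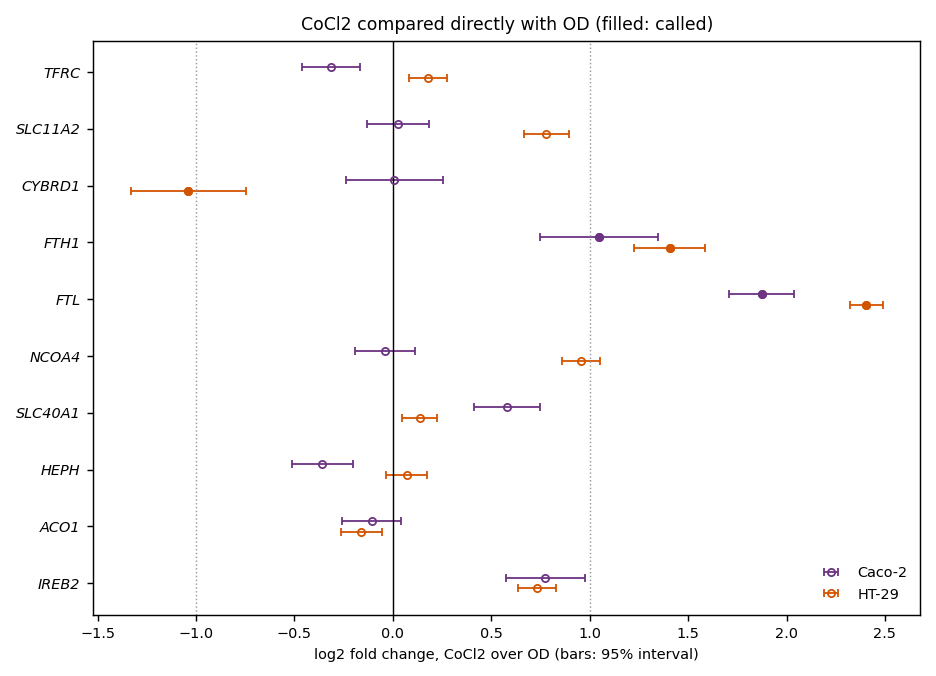
Log2 ratio of CoCl2 to OD (x axis) with 95% intervals for the 10 genes in Caco-2 and HT-29, filled where called and dotted at −1 and 1. FTL and FTH1 lie at 1.05 or more in both lines, and SLC11A2 lies at 0.03 in Caco-2 and 0.78 in HT-29.

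To set these beside HIF and NRF2 activity, 2 reference lists were read in the same comparisons. The 9 HIF genes (ALDOC, P4HA1 and PDK1 of metabolism, BNIP3, DDIT4 and NDRG1 of stress, and KDM3A, ANKRD37 and BHLHE40) are a published core set that the study narrowed on its own Caco-2 libraries, so their direction in Caco-2 is no independent evidence. Their median log2 change under CoCl2 was 3.14 in the Caco-2 libraries and 3.43 in those of HT-29, and under OD it was 2.46 and 1.01, with 9 and 8 of 9 called under CoCl2 and 9 and 5 of 9 under OD, all higher. The 10 NRF2 genes, which include GCLM, GCLC, TXNRD1 and NQO1, had medians of 1.99 and 3.52 under CoCl2, with 9 of 9 and 9 of 10 called, and of 0.81 and 1.72 under OD, with 2 of 9 and 8 of 10 called, all higher.

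Side by side, SLC11A2 took its lowest value of 0.85 where the HIF list was also lowest, with OD in HT-29, and stood between 1.48 and 1.63 in the other comparisons. FTL was lowest with OD in Caco-2, at 0.05, where the NRF2 list was also lowest and the HIF list was called in full. FTH1, SLC40A1 and IREB2 were lowest there too, at 0.63, −0.28 and −0.49. Unlike the NRF2 list, FTH1 was higher with OD in HT-29 (2.07) than with CoCl2 in Caco-2 (1.67). NCOA4 (0.03) and HEPH (−0.15) were lowest with OD in HT-29, CYBRD1 (−0.09) with CoCl2 in HT-29 and ACO1 (−0.22) with CoCl2 in Caco-2. On library size alone HEPH was lowest with CoCl2 in HT-29, at −0.71. TFRC was also lowest with OD in HT-29, at 0.65, but was highest with OD in Caco-2, at 1.12, where neither list was highest. Scaled by library size alone, TFRC was lowest with CoCl2 in HT-29, at 0.20, against 0.52 with OD there. SLC11A2 stayed lowest with OD in HT-29 in that setting, at 0.71, but CoCl2 there fell to 0.998. The comparisons of a line share their controls, so these orders are descriptions of the same libraries and were not tested. Whether TFRC and SLC11A2 moved through the sensors, HIF or both cannot be told apart here. What moved the ferritins was not tested.

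Without using the lists, the genes most like each member were found by Pearson r of log2 CPM over all 18 libraries after removing the mean of each line, among 17921 genes. Since groups of 3 libraries share a treatment, r mainly describes 4 treatment shifts. For FTL these were UNKL, GCLM and the pseudogene FTLP3 (r of 0.99 for each), and for FTH1 they were TKT, SPSB1 and SQSTM1 (0.98 to 0.99). For SLC11A2 they were PFKP, P4HA1 and COPA (0.99 for each), and for TFRC TMEM39A, GNB1 and WSB2 (0.96 to 0.98). NCOA4 was nearest to NPEPPS (0.99), SLC40A1 to EZH1 (0.95), CYBRD1 to POU3F1 (0.97), HEPH to TXNIP (0.93), ACO1 to OASL (0.95) and IREB2 to LRRC8B (0.94).

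Of 48 other iron genes listed for uptake, storage, export, sensing, mitochondria and heme, 40 passed the filter in Caco-2, as did 38 in HT-29. CoCl2 called 7 of 40 in Caco-2, 4 higher and 3 lower, against 23.4% of all genes, and 15 of 38 in HT-29, 6 higher and 9 lower, against 41.3%. On library size alone these were 3 higher and 5 lower, and 3 higher and 14 lower, beside 870 higher and 3546 lower of all 16034 genes in Caco-2 and 1295 and 6250 of 15812 in HT-29. OD called 4 of 40 in Caco-2, 3 higher and 1 lower, against 11.7%, and 4 of 38 in HT-29, 2 higher and 2 lower, against 17.1%. None of these counts exceeded the share of all genes, so they are no result about iron genes. Median log2 changes of the tested genes were −0.02 and 0.09 in Caco-2 under CoCl2 and OD, with 0.03 and −0.03 for HT-29, close to those of all genes.

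HMOX1, which encodes the inducible heme oxygenase that frees iron from heme, made the largest change of these genes with CoCl2 in both lines. It went from 17.8 ± 1.91 to 614 ± 38.5 CPM in Caco-2 (log2 5.11 ± 0.10) and from 4.92 ± 0.61 to 2113 ± 74.3 CPM in HT-29 (log2 8.77 ± 0.07). With OD its log2 changes were 0.45 ± 0.10 in Caco-2 and 1.36 ± 0.09 in HT-29, the second of these called.

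In Caco-2, CP, the copper oxidase ceruloplasmin, was called higher with both agents, at 16.8 ± 2.095 and 11.8 ± 0.40 CPM for CoCl2 and OD over 4.68 ± 0.71 in the controls. STEAP3, a ferric reductase of endosomes, was called lower with both, from 21.3 ± 1.95 CPM to 4.63 ± 1.02 and 10.2 ± 2.03. SLC46A1, a carrier of folate and heme, was called lower with CoCl2, by −1.01 ± 0.08 on the log2 scale.

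In HT-29, CoCl2 lowered the reductases STEAP4 and STEAP2, by −2.93 ± 0.11 and −2.36 ± 0.08 on the log2 scale, and CDC14A, a phosphatase gene known for an IRE in some transcripts, by −1.85 ± 0.10. ISCA1, of iron-sulfur cluster assembly, was called higher there, by 1.68 ± 0.07. With OD in HT-29, SLC25A28, the carrier mitoferrin 2, was called higher by 1.19 ± 0.07, while STEAP4 and CDC14A were called lower by −1.39 ± 0.08 and −1.78 ± 0.09. In Caco-2, CDC14A went the other way, from 8.74 ± 0.52 CPM in controls to 11.7 ± 1.96 with CoCl2 and 14.1 ± 1.94 with OD. On library size alone its log2 changes there were 0.10 (edgeR FDR = 0.556) and 0.54 (edgeR FDR = 0.00511).

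EPAS1, which encodes HIF-2α and has an IRE-like match in its 5′ UTR, rose in all 4 comparisons, by 0.55 ± 0.07, 0.60 ± 0.07, 0.75 ± 0.05 and 0.79 ± 0.05, in the order Caco-2 with CoCl2, Caco-2 with OD, HT-29 with CoCl2, HT-29 with OD. FBXL5, the iron-sensing ligase that breaks down IREB2, changed in the same order by 0.40 ± 0.11, −0.47 ± 0.11, 0.47 ± 0.06 and 0.30 ± 0.06, and on library size alone the CoCl2 values became 0.08 in Caco-2 (edgeR FDR = 0.547) and −0.17 in HT-29. The FBXL5 levels of CoCl2 and control libraries of Caco-2 overlapped. The EPAS1 changes with CoCl2 became 0.23 in Caco-2 and 0.12 in HT-29 on library size alone.

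**Figure D4:**
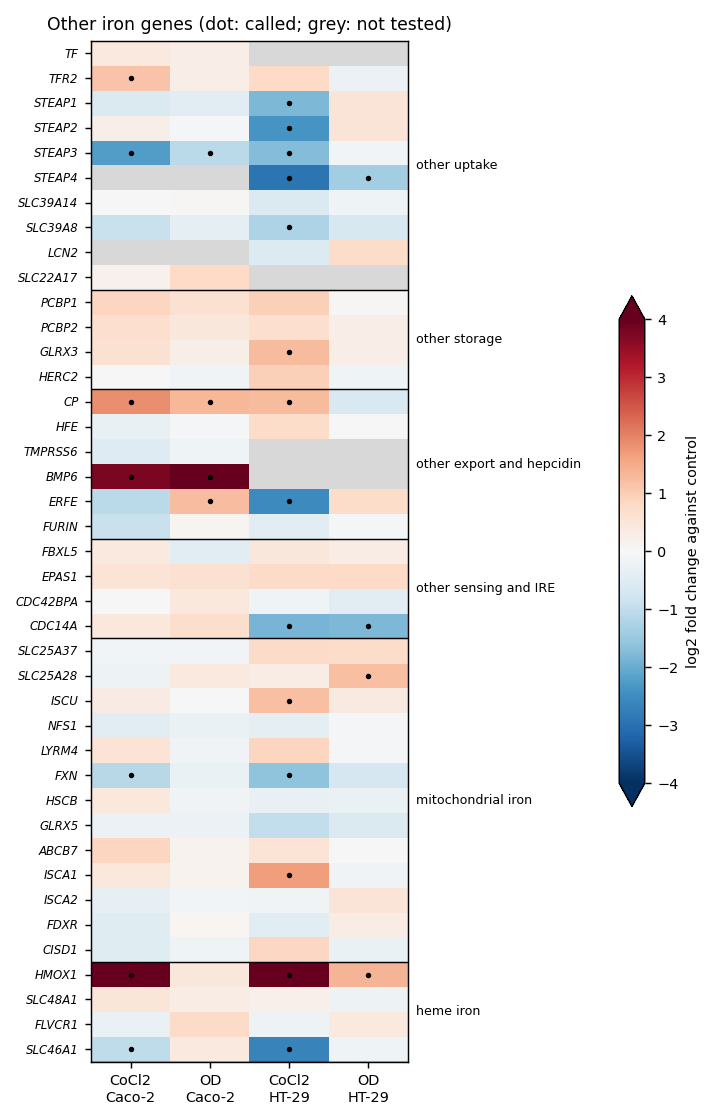
Log2 fold change against control (colour, −4 to 4, beyond that at the end colours) of the other iron genes tested and reported, in rows by role, with a dot where called and grey where not tested. HMOX1 is off the scale with CoCl2 in both lines, at 5.11 and 8.77, and the STEAP genes of the uptake list are lower with CoCl2 in HT-29.

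The size of the ferritin responses differed between the lines. Tested as an interaction over all 18 libraries, HT-29 less Caco-2, 2 of 10 members were called for CoCl2 against 21.6% of all genes, and 2 of 10 for OD against 15.2%. They were FTH1 and FTL both times, stronger in HT-29 by 1.69 ± 0.20 and 1.78 ± 0.09 for CoCl2 and by 1.42 ± 0.20 and 1.34 ± 0.09 for OD. TFRC with CoCl2 differed by −0.08 between the lines, with an interval from −0.25 to 0.10, and its sign turned under another scaling (0.03).

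Between the untreated lines, 5 of 10 members were called against 45.8% of all genes. HT-29 controls held 4.81-fold more FTH1 than Caco-2 controls (log2 2.26 ± 0.15), and they held less CYBRD1 (log2 −2.52 ± 0.13), HEPH (−1.92 ± 0.06), SLC40A1 (−1.69 ± 0.07) and NCOA4 (−1.22 ± 0.06). At the FDR threshold alone, 8 members were lower in HT-29 controls and 2 higher, where 39.6% and 39.5% of all genes passed. The lower ones included FTL (log2 −0.89) and ACO1 (−0.81), so the reductase and the export genes were not alone in being higher in Caco-2. The enterocyte markers named above were also higher there, and their part in this was not tested. Cell line and culture state cannot be told apart.

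Levels of different genes can be compared per length, on the deposited scale of log2 of RPKM plus 1, where RPKM is CPM divided by gene length in kilobases. On that scale FTL led in every group, from 10.5 in HT-29 controls to 14.2 in HT-29 with CoCl2, and CYBRD1 was lowest, from 0.76 to 2.56. In Caco-2 controls FTL (11.5 ± 0.03) was followed by SLC40A1 (7.09 ± 0.03), NCOA4 (6.94 ± 0.02), TFRC (6.33 ± 0.06) and HEPH (6.02 ± 0.11). Next came FTH1 (4.50 ± 0.25) and SLC11A2 (4.48 ± 0.11), whose levels did not differ beyond their spread, then ACO1 (4.09 ± 0.04), IREB2 (3.67 ± 0.06) and CYBRD1 (2.52 ± 0.12). In HT-29 controls FTH1 stood in second place at 6.64 ± 0.31, above TFRC at 5.97 ± 0.06. The place of FTH1 in these orders is uncertain. Its 24 pseudogenes came to 17.8% to 24.8% of its counts in Caco-2 controls, and the handling of reads that match several places is not known.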

How the data were processed

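Single-end mRNA reads were trimmed with cutadapt 2.10 and aligned with STAR 2.7.5b to GRCh38.p13, per the labels and the methods, which describe Caco-2. The counting tool, its use of strand and its treatment of reads with several matches are not given in the sources used here. The authors deposited raw counts per gene, used here, and a table of log2 values, which recomputation from the counts showed to be log2 of RPKM plus 1 with TMM scaling within each line, used for levels per length and as an alternative. Files of miRNA were not used here. Groups came from the sample labels.

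Each line was fitted alone over its 9 libraries with edgeR 4.0.16 in R 4.3.3 (TMM, filterByExpr, quasi-likelihood F test), and comparisons between lines over all 18. Genes tested numbered 16034 in Caco-2, 15812 in HT-29 and 17921 over both. The study used DESeq2, run here as an alternative (DESeq2 1.42.0), beside RLE scaling, library size alone, no filter, a replicate block, limma 3.58.1 on the log2 values and leaving out each library. The fit was tested on simulated data with known changes. Those changes were few and balanced between higher and lower, so the simulation cannot judge the choice of scaling. Replicates spread beyond counting error in all groups (chi-square over its degrees of freedom 1.96 to 12.6).

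The members and lists were chosen with earlier results of these data known. All 10 members are named. Of the other iron genes, HMOX1, EPAS1 and FBXL5 are named, and for each comparison with control up to 3 highest and 3 lowest log2 changes among called genes with a mean count of at least 100 and no overlap between groups; 1 gene that this rule names is not reported here, though the counts include it. IREs were searched in UTRs of GENCODE release 44 on GRCh38, and promoters are from RefSeq.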

Additional observations from a re-analysis of the deposited data

Results flagged for a closer look

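The ferritin genes stood out because their responses differed between the lines by a test of the difference itself. FTH1 responded more in HT-29 than in Caco-2 by 1.69 on the log2 scale to CoCl2 and by 1.42 to OD (edgeR FDR = 7.57e-09 and 4.16e-07). FTL did so by 1.78 and 1.34 (edgeR FDR = 9.21e-18 and 3.21e-14). In each case the 3 treated libraries of HT-29 lay above its 3 controls, and without any 1 library the values ran from 1.53 to 1.93 and from 1.26 to 1.57 for FTH1 and from 1.73 to 1.85 and from 1.30 to 1.38 for FTL. Cell line and culture state cannot be told apart in them.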

How the results depend on the processing

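Of 24 member results past the call, re-run in 346 settings, 336 kept the call and the direction, 10 lost the call, and 0 changed direction. Over all 90 member results and 1340 settings, 38 changed direction, all for values under 1 in size. Called by the FDR alone, members numbered 8 for CoCl2 against control, 7 for OD against control and 6 for CoCl2 against OD in Caco-2, 8, 9 and 9 for the same comparisons of HT-29, 6 and 10 for the line differences with CoCl2 and OD, and 10 between the untreated lines. On library size alone 1 member was called for OD against control and 1 for CoCl2 against OD in Caco-2. In HT-29 that setting cost SLC11A2 its call with CoCl2 (0.998) and FTH1 its call for CoCl2 against OD (0.91). Without single libraries the count for CoCl2 against OD in Caco-2 ran from 1 to 2. In HT-29 the count ran from 3 to 4 for CoCl2 against control, from 2 to 3 for OD against control and from 2 to 3 for CoCl2 against OD.

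On library size alone, the log2 changes with CoCl2 in Caco-2 became −0.021 for SLC40A1, −0.23 for CYBRD1, −0.27 for HEPH and −0.034 for IREB2, and with OD −0.10 for FTL and −0.069 for CYBRD1. CoCl2 against OD there became −0.14 for SLC11A2 and −0.16 for CYBRD1. In HT-29 they became −0.28 for ACO1 and −0.062 for IREB2 with CoCl2, −0.11 for NCOA4 with OD, and −0.32 for TFRC, −0.36 for SLC40A1 and −0.43 for HEPH for CoCl2 against OD. Line differences with CoCl2 became −0.19 for SLC11A2 and −0.027 for IREB2. This setting moves all genes together, so values relative to the median of all genes stay as given.

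Without the filter, CoCl2 against OD in Caco-2 was −0.00278 for SLC11A2 and −0.022 for CYBRD1, and the SLC11A2 line difference with CoCl2 was −0.00335. CYBRD1 in that Caco-2 comparison was −0.00528 with the replicate block and −0.00568 with limma, and the TFRC line difference with CoCl2 was 0.030 with RLE scaling and 0.029 with DESeq2. Without single libraries, CYBRD1 ran from −0.052 to 0.18 with CoCl2 in Caco-2, −0.00676 to 0.15 with OD in Caco-2, −0.14 to 0.10 for CoCl2 against OD in Caco-2 and −0.18 to 0.00218 with CoCl2 in HT-29. NCOA4 ran from −0.10 to 0.025 and SLC11A2 from −0.028 to 0.068 for CoCl2 against OD in Caco-2, and the SLC11A2 line difference with CoCl2 from −0.048 to 0.069.

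Replicate numbers did not pair the libraries: over 18 pairs of same-numbered libraries r ran from −0.07 to 0.08, 0 pairs exceeded 0.1, and 12 of 36 library and group combinations correlated best with their own number. With the replicate block the members called stayed at 3, 2 and 2 for the Caco-2 comparisons, 3, 2 and 3 for those of HT-29 and 2 and 2 for the line differences.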
